A study of Homo sapiens with 4 samples.

Results

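The LIM-only genes LMO1, LMO2, LMO3 and LMO4 and the LIM-binding genes LDB1 and LDB2 are described here in human pluripotent stem cells (hPSC) and in cells led from hPSC towards ectoderm. The 6 genes were named as a list, out of 60674 features in each deposited matrix, and all 6 are listed in both matrices. They were chosen with their levels in these libraries known, including the opposite changes of LMO1 and LMO3, so the levels by library are a description and were not tested.

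LMO proteins consist of little more than a pair of LIM zinc fingers, have no DNA-binding domain of their own and act as adaptors between transcription factors. LDB proteins form dimers and hold the LIM domains of LMO and LIM-homeodomain proteins, so that factors bound at separate DNA sites are joined. LMO and LIM-homeodomain proteins use the same site on LDB, and their amounts relative to LDB are known to matter for the formation of these complexes in the developing nervous system and in blood.

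In the study, hPSC received a pooled lentiviral guide library, in which every construct holds a guide, EGFP under an EF1α promoter and its own 22-nucleotide barcode, and a second lentivirus that supplied Cas9 with mCherry. Cells were sorted on fluorescence and recovered for 1 week. One culture was profiled as hPSC and the other after induction towards ectoderm, each as 1 single-cell 3′ transcriptome library with 1 amplicon table that ties cell barcodes to guides. Both cultures therefore carried Cas9, guides and the reporters, and the guide tables shared 0 target genes, so that state, culture and guide pool cannot be told apart between the libraries. The protocol text speaks of the induction for all 4 samples, and the groups were taken from their titles. One established hPSC line is named for all samples. Expression did not match that line in 2 of 2 transcriptome libraries, and the identity of the line is not settled for any result.

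The filtered data were 15326 hPSC and 16360 ectoderm cells, with 83246015 and 91249888 UMIs (unique molecular identifiers, the counted RNA molecules). Median depth was 4807.5 and 4499 UMIs per cell, and the median mitochondrial share was 4.18% and 3.17%. The libraries shared 78 cell barcodes, 0.509% of hPSC cells and 0.477% of ectoderm cells. Of 10 pluripotent stem cell markers, 10 were at 5 CPM (UMIs scaled to a library total of 1000000) or more in both libraries, with a sum of 3832 CPM in hPSC and 3067 CPM in ectoderm. Neural ectoderm progenitor markers at that level numbered 3 of 9 in hPSC and 8 of 9 in ectoderm, with sums of 346 and 2288 CPM. The ectoderm library thus held pluripotency transcripts beside neural ones. The sum of the pluripotent markers hid unlike changes. NANOG had 178 CPM in hPSC and 11.6 in ectoderm, POU5F1 1155 and 485, and TDGF1 273 and 112. DPPA4, L1TD1, ZFP42 and PODXL were also lower in ectoderm. LIN28A, at 517 and 956 CPM, DNMT3B and USP44 were higher there. Surface ectoderm markers summed to 228 CPM in hPSC and 389 CPM in ectoderm, mostly from EPCAM and TFAP2C, which hPSC also express, while TP63 and KRT5 had 0 UMIs in both. Neuron markers summed to 61.3 CPM in hPSC against 38.8 in ectoderm, neural crest markers to 48.8 against 57.7, placode markers to 36.2 against 33.8, mesoderm markers to 35.4 against 12.6, mesenchyme markers to 11.03 against 14.4, amnion markers to 6.59 against 1.53 and endoderm markers to 0.913 against 1.24. Their part in the results was not tested. Intervals below are 95% intervals for counting error only. With 1 library per state there was no replicate check and no p-value.

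Sequence is shown for LMO1 and LMO3, the pair that changed in opposite directions between the libraries. RefSeq promoter windows on GRCh38.p14 were matched for 4 of the 6 genes, with 9 windows in all, and each was cut to the 250 bases before the transcription start. The motif TAATTA, which reads the same on both strands and is the core bound by many homeodomain proteins, is in capitals. The LMO1 window is chr11:8268788-8269037 and the LMO3 window chr12:16608215-16608464, both on the minus strand and printed 5′ to 3′ along the gene.
LMO1: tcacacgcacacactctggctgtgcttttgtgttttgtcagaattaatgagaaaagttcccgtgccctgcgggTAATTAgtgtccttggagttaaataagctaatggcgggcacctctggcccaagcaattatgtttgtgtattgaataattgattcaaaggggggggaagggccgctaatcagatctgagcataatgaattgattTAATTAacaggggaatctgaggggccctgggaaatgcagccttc
LMO3: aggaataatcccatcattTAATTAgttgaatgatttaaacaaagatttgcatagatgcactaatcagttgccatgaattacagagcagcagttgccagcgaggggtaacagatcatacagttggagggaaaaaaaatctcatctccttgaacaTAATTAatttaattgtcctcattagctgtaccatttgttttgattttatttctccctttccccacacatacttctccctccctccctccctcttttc
Each of these windows held 2 copies of TAATTA and overlapped 0 exons of the GENCODE v29 annotation. Among 35116 promoter windows of the same length, 4.35% held at least 1 copy and 0.353% held 2 or more. The other 4 LMO3 windows, both LMO4 windows and the LDB1 window held 0 copies. Both windows were poorer in G and C than most, with 45.6% for LMO1 and 37.6% for LMO3, against a median of 58% over all windows. The motif was chosen after the windows had been read, and a match is a description of the letters, not a binding site. The LMO3 window was taken from 5 because it held the motif, so its rarity among all windows is built into that choice. It lies inside the annotated span of LMO3. The first bases after the LMO1 start were in 0 of the GENCODE v29 transcripts of LMO1. Which starts the cells used was not measured.

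LMO1 was nearly absent from hPSC and abundant in ectoderm. The gene (ENSG00000166407, chr11:8224304-8268716, minus strand) had 61 UMIs in hPSC and 6249 in ectoderm, which is 0.733 CPM (0.561 to 0.941) against 68.5 CPM (66.8 to 70.2). The log2 ratio of ectoderm over hPSC was 6.55 (6.18 to 6.93), a 93.5-fold higher level. The nearest protein-coding genes differed far less. RIC3, on the side of lower coordinates, had 8.30 CPM against 11.6 in ectoderm (log2 ratio 0.49), and STK33, on the other side, at 11.3 and 16.3 CPM (0.53).

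LMO3, the closest relative of LMO1, went the other way. The gene (ENSG00000048540, chr12:16548373-16610594, minus strand) had 3345 UMIs in hPSC and 1656 in ectoderm, or 40.2 CPM (38.8 to 41.6) against 18.1 CPM (17.3 to 19.0), a log2 ratio of -1.15 (-1.23 to -1.06). LMO3 lies across MGST1, a microsomal glutathione transferase gene on the opposite strand, and whether the counting used strand is not given in the sources used here. In GENCODE v29, the 10268 exonic bases of LMO3 and the 7440 of MGST1 share 0 positions, so only reads from introns could be mixed up between them if strand was ignored. MGST1 had 909 CPM against 1064 in ectoderm (log2 ratio 0.23), the opposite direction to LMO3. LMO1 made up 1.79% (1.37 to 2.29) of the UMIs of the LMO1 and LMO3 pair in hPSC and 79.1% (78.1 to 79.9) in ectoderm. The share counts captured 3′ ends, and capture may differ between the genes.

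LMO4, the LMO gene of widest expression, was close to level between the libraries. It had 85.9 CPM (83.9 to 87.9) in hPSC from 7148 UMIs and 100.3 CPM (98.3 to 102) in ectoderm from 9153 UMIs, a log2 ratio of 0.22 (0.18 to 0.27). It lies at chr1:87328468-87348923 on the plus strand (ENSG00000143013). LMO2, the adaptor of blood and endothelial cells (ENSG00000135363, chr11:33858576-33892289, minus strand), was scarce in both. It had 32 UMIs in hPSC and 246 in ectoderm, 0.384 CPM (0.263 to 0.543) and 2.70 CPM (2.37 to 3.05), a log2 ratio of 2.81 (2.27 to 3.39) at levels under the 20 CPM minimum used to call a difference. The 7 markers of endothelial and blood cells summed to 0.769 CPM in hPSC and 1.37 CPM in ectoderm, and 5 of them had 3 UMIs or fewer in each library.

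The binding partners also parted. LDB2 (ENSG00000169744, chr4:16501541-16898809, minus strand) had 5648 UMIs in hPSC and 1431 in ectoderm, or 67.8 CPM (66.1 to 69.6) against 15.7 CPM (14.9 to 16.5), with a log2 ratio of -2.11 (-2.20 to -2.03). LDB1, its more widely expressed relative (ENSG00000198728, chr10:102107560-102120453, minus strand), stood at 30.1 CPM (28.9 to 31.3) from 2507 UMIs and 32.2 CPM (31.02 to 33.4) from 2936 UMIs, a log2 ratio of 0.10 (0.018 to 0.17). LDB1 therefore made up 30.7% (29.7 to 31.8) of LDB UMIs in hPSC and 67.2% (65.8 to 68.6) in ectoderm. Summed over each family, LMO transcripts went from 127 CPM in hPSC to 189.6 CPM in ectoderm and LDB transcripts from 98.0 to 47.9 CPM.

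**Figure D1:**
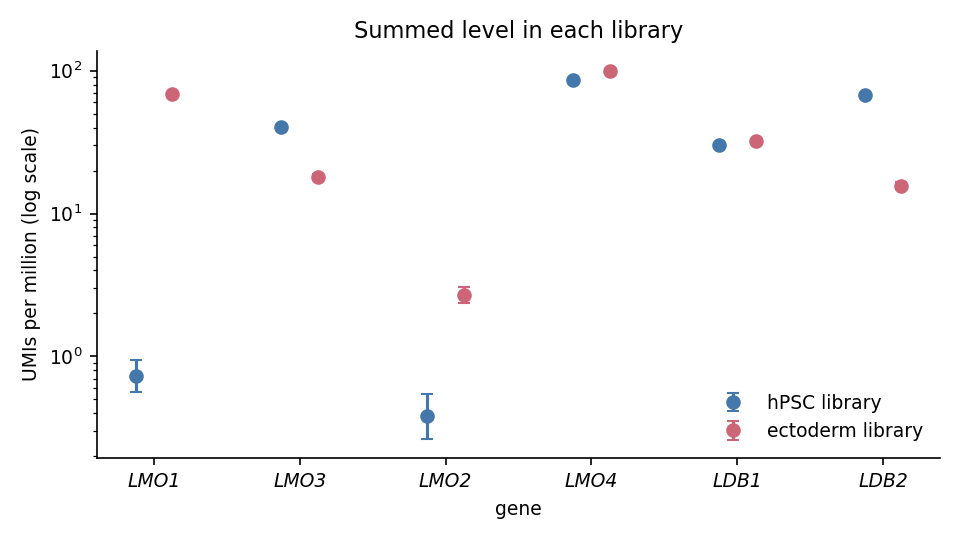
Summed level of the 6 genes in the hPSC library (blue) and the ectoderm library (red), in CPM on a log axis. Bars are exact Poisson 95% intervals and are smaller than the point where not seen. LMO1 and LMO2 sit higher in ectoderm, LMO3 and LDB2 lower, and LMO4 and LDB1 nearly level.

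A gene was called by its size of change, that is 2-fold or more between the libraries once either of them reached 20 CPM. Among the 6 genes, 1, LMO1, was higher in ectoderm and 2, LMO3 and LDB2, were lower. LMO4 and LDB1 were within 2-fold, and LMO2 was under the minimum. Over all 6249 genes at the minimum, 7.28% met the rule, 3.25% as higher and 4.03% as lower. The median log2 ratio was 0.10 over the 5 listed genes at the minimum and -0.03 over all 6249. LMO3 was just inside the rule, at -1.15, and LMO4 outside it, at 0.22. The genes had been chosen on this contrast, and nothing is read from these counts.

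None of the 6 genes was a guide target in either table. In cells singly assigned to a non-targeting guide, 212 in hPSC and 159 in ectoderm, LMO1 had 1 and 72 UMIs (log2 ratio 6.46, 3.94 to 11.79). LMO3 had 40 and 14 UMIs (-1.22, -2.21 to -0.31), and LDB2 had 84 and 15 (-2.19, -3.09 to -1.39). Those 3 genes thus differed between the libraries by a like amount in cells without a targeted gene. LMO4, with 108 and 82 UMIs, gave -0.10 (-0.53 to 0.33), and LDB1, with 48 and 36 UMIs, gave -0.12 (-0.79 to 0.53), so that the small excess of these genes in ectoderm was not detectable there. LMO2 had 0 UMIs in both sets of cells.

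The levels were next read cell by cell. So that depth did not set the shares, each cell was thinned to 2500 UMIs, which left 14743 hPSC and 15164 ectoderm cells and left out 583 and 1196 shallower ones. LMO1 was detected in 0.210% (0.143 to 0.298) of thinned hPSC cells and in 14.3% (13.7 to 14.8) of thinned ectoderm cells. Unthinned, the shares were 0.398% and 26.1%. LMO3 went from 9.10% (8.64 to 9.57) in hPSC to 4.31% (3.99 to 4.64) in ectoderm, or from 18.0% to 9.25% unthinned. LDB2 went from 15.4% to 4.07% (29.003% to 8.13% unthinned). LMO4 was in 18.7% and 22.4% of thinned cells (35.2% and 39.8% unthinned), LDB1 in 7.21% and 7.64% (14.7% and 15.9%), and LMO2 in 0.0950% and 0.600% (0.209% and 1.48%). Free RNA from cells of the same culture was not measured, so a low share cannot be read as expression. Genes of unrelated tissues bear only on miscalled reads, and 10 of them, among them HBB, ALB and INS, were detected in at most 4 hPSC cells (0.0261%) and 3 ectoderm cells (0.0183%). Each of the 61 hPSC cells with LMO1 had exactly 1 UMI. None of those 61 cells had a barcode that also occurred in the ectoderm library.

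Most detections were of single molecules. LMO1 in ectoderm had the highest ratio of variance to mean. In unthinned ectoderm cells, 2926 cells had 1 LMO1 UMI, 912 had 2, 429 had 3 or more, and the highest cell had 8. After thinning, 343 cells had 2 or more LMO1 UMIs, against 194 for a Poisson spread of the same mean, and the variance was 1.20 times the mean. LMO4, with a higher mean in the same cells, had 377 such cells against 403, and a variance of 0.977 times the mean. LMO3 in hPSC lay between, with 108 cells against 67.4 and a ratio of 1.07. The other genes had ratios from 0.993 to 1.03. LMO1 was therefore spread less evenly over ectoderm cells than LMO4 was. The ratio stays near 1 for a gene of low mean, so LMO2, LMO3, LDB1 and LDB2, with lower means in ectoderm, cannot be compared with LMO1 in this way.

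Cells were next grouped by LMO1 and LMO3 together. These shares follow mostly from the separate detection of each gene given above and are no further evidence of the opposite changes. Of thinned hPSC cells, 9.08% had LMO3 without LMO1, 0.197% had LMO1 without LMO3, and 2 cells (0.0136%) had both. In ectoderm, 13.6% had LMO1 alone, 3.66% had LMO3 alone, and 98 cells (0.646%) had both. Neither gene was seen in 90.7% of hPSC and 82.1% of ectoderm cells at this depth.

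**Figure D2:**
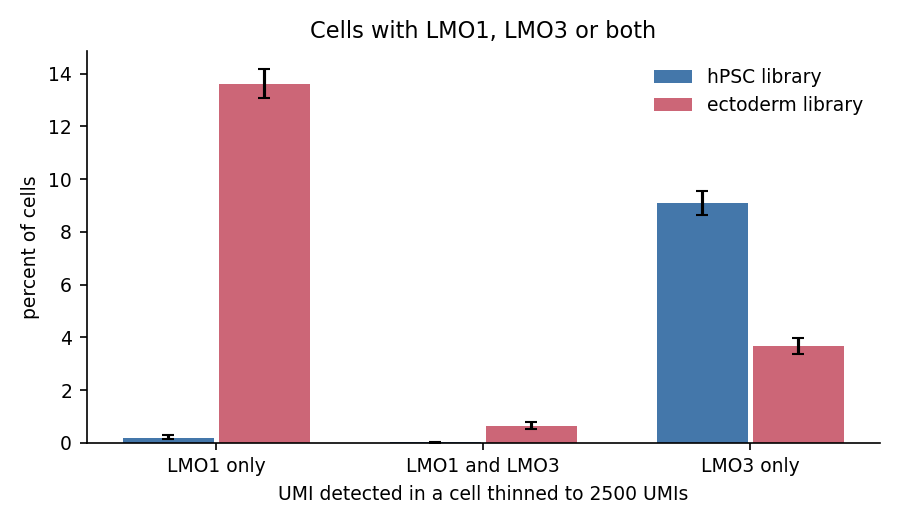
Percent of cells, each thinned to 2500 UMIs, with a UMI of LMO1 only, of both genes or of LMO3 only, in the hPSC library (blue) and the ectoderm library (red). Bars start at 0 and error bars are exact binomial 95% intervals. LMO3 alone prevails in hPSC (9.08%) and LMO1 alone in ectoderm (13.6%).

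Within ectoderm cells, LMO1 and LMO3 were found together about as often as their separate shares give. The 98 cells with both were 1.05 times (0.855 to 1.28) the 93.1 given by the product of the separate shares. Unthinned, 500 cells had both, 1.04 times (0.952 to 1.14) the product taken within 10 bins of depth. In a further reading, chosen after the data had been seen, the product was taken within clusters and depth bins and the ratio was 1.03 (0.940 to 1.12). Doublets were not removed and can add to such counts. LMO1 cells held LMO3 at 18.3 CPM and cells without LMO1 held it at 17.5 CPM (log2 ratio 0.06, -0.26 to 0.37).

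Other pairs were near their products as well. Of 15 pairs, 7 in hPSC and 13 in ectoderm had a product of at least 5 thinned cells. Their ratios ran from 0.862 to 1.08 in hPSC and from 0.807 to 1.39 in ectoderm, and in 0 of them did the interval leave out 1. An LMO and an LDB transcript were seen together in 5.72% of thinned hPSC cells and 4.14% of thinned ectoderm cells. The lowest ratio in ectoderm was that of LMO1 with LDB2, with 71 cells against a product of 87.9 (0.807, 0.631 to 1.02). Within depth bins of unthinned cells that pair had 369 cells and a ratio of 0.875 (0.788 to 0.970). Within clusters and depth bins it had 0.923 (0.831 to 1.02), an interval that includes 1.

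Clusters show where the genes varied inside a library. Each library was clustered alone with the 6 genes left out, which gave 4 clusters each, called here by number. In ectoderm, LMO1 had 74.5, 79.1 and 75.7 CPM in clusters 0, 2 and 3, but only 18.4 CPM (16.2 to 21.0) in cluster 1, which held 3092 of the 16360 cells. LDB2 did the reverse, with 27.0 CPM (24.2 to 30.01) in cluster 1 and 12.1, 16.1 and 12.9 CPM in clusters 0, 2 and 3. LMO3 ran only from 16.2 to 20.6 CPM over the 4 clusters, LMO4 from 91.8 to 103.8 CPM and LDB1 from 29.8 to 36.0 CPM. LMO1 made up 53.3% (48.5 to 58.0) of the LMO1 and LMO3 pair in cluster 1 and 78.3% to 81.5% in the others. LDB1 made up 56.3% of the LDB pair there and 66.1% to 74.8% elsewhere.

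**Figure D3:**
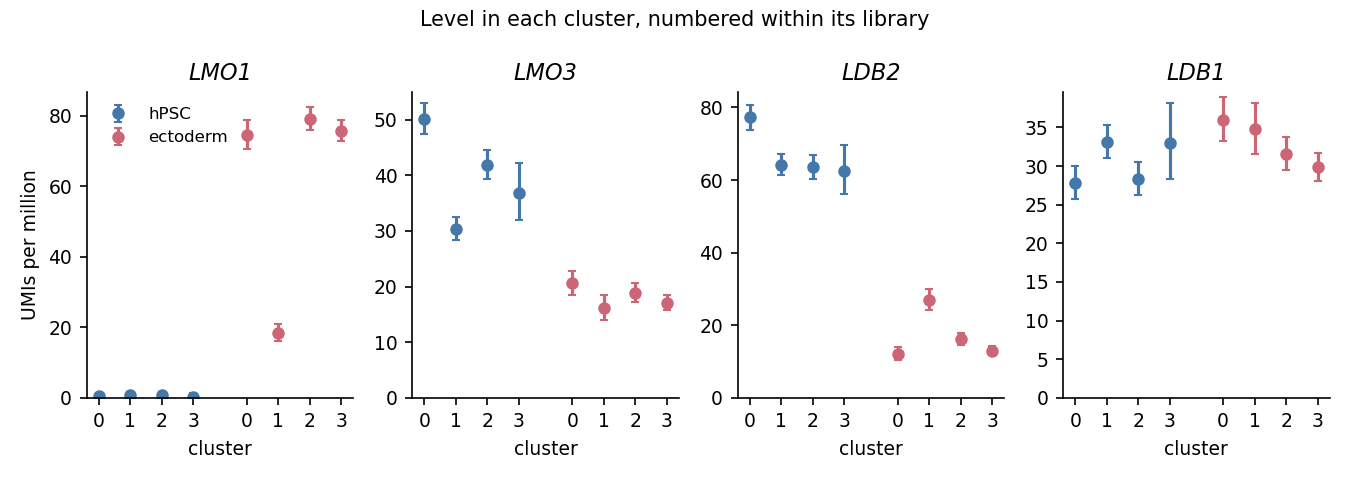
Level of LMO1, LMO3, LDB2 and LDB1 in each cluster of the hPSC library (blue) and the ectoderm library (red), in CPM on axes that start at 0, with exact Poisson 95% intervals. Ectoderm cluster 1 stands apart, with LMO1 at 18.4 against 74.5 to 79.1 in the other 3 clusters and LDB2 at 27.0 against 12.1 to 16.1.

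Ectoderm cluster 1 held less of most neural ectoderm markers and more of part of the pluripotency markers. Of 9 neural ectoderm markers, 7 were lower there than in each of the other 3 clusters, ZIC2 was within their range and PAX6, under 2 CPM, was higher. Of 10 pluripotent markers, 6 were higher than in each other cluster, and LIN28A, DNMT3B, USP44 and ZFP42 were within the range of the others. SIX6, an eye-field homeobox gene, stood there at 9.50 CPM against 45.0 to 60.7 CPM in the other 3 clusters. SIX3, a forebrain homeobox gene, stood at 208 against 461 to 530 CPM, and SOX1, a neural plate factor, at 18.1 against 40.7 to 57.3 CPM. TDGF1, a co-receptor for Nodal, stood at 171 against 74.0 to 119.9 CPM, and the pluripotency factor POU5F1 at 652 against 432 to 479 CPM. Neural ectoderm markers summed to 1772 CPM in cluster 1 and 2249 to 2629 CPM elsewhere, and pluripotent markers to 3605 CPM against 2813 to 3176 CPM. SOX2 was lowest in cluster 1, at 474 CPM against 493 to 558 CPM. Genes of the G2 and M phases also summed lowest there, at 1067 CPM against 1173, 4443 and 2121 CPM in clusters 0, 2 and 3. LMO1 was at 18.4 CPM in cluster 1 and at 74.5, 79.1 and 75.7 CPM in clusters 0, 2 and 3. The part of the G2 and M phase genes in the LMO1 difference was not tested. The median depth of cluster 1 was 3660 UMIs, close to the 3644 of cluster 0 and below the 5622.5 and 5610 of clusters 2 and 3.

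Set against the other ectoderm cells together, LMO1 had the fifth lowest ratio of 5872 genes at 20 CPM or more in cluster 1 or in the other cells, with a log2 ratio of -2.05 (-2.25 to -1.87). SIX6 (-2.46), RIPPLY3 (-2.34), SHISA2 (-2.22) and FGF17 (-2.12) came before it, and the mitotic genes CENPA (-1.90), FAM83D (-1.87) and UBE2C (-1.84) after it. LDB2 was the tenth highest, at 0.96 (0.78 to 1.14), in a group led by APELA (1.89), which encodes a peptide ligand made by hPSC. Of the 5872 genes, 1.29% differed 2-fold. The 6 genes had no part in forming the cluster but the others could, and the ratios are given as a description. Cluster 1 was singled out for its low LMO1 after the data had been seen. A low ratio and rank of LMO1 are built into that choice. Without cluster 1 the log2 ratio of ectoderm over hPSC was 6.71 for LMO1, -1.12 for LMO3 and -2.29 for LDB2. Within each ectoderm cluster the variance of LMO1 in thinned cells was 1.11 to 1.24 times its mean, so the uneven spread was also present inside the clusters.

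The hPSC clusters differed in LMO3. It was highest in cluster 0, at 50.2 CPM (47.5 to 53.0), followed by clusters 2 and 3, at 41.9 and 36.8 CPM, and cluster 1, at 30.4 CPM (28.4 to 32.5). Genes of the G2 and M phases summed to 4773, 1941, 1259 and 1065 CPM in clusters 0, 2, 3 and 1, the same order as LMO3. Their part in the LMO3 difference was not tested. LDB2 was also highest in cluster 0, at 77.2 CPM against 62.6 to 64.3 CPM in the others. LMO1 had 2 to 25 UMIs per hPSC cluster and stayed between 0.365 and 0.906 CPM.

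Cells with and without a UMI of LMO1 were then compared for 18 genes that mark the hPSC or ectoderm state. In ectoderm, 2161 thinned cells had LMO1 and 13003 had none. Of the 18 genes, 11 had an interval above 0, meaning more in LMO1 cells, and 4 had one below 0. The intervals hold counting error only, and small shifts can pass them with so many cells. No share over all genes is given beside this count or the like counts below, so nothing is read from the counts. SIX6 stood at 63.1 CPM in cells with LMO1 and 44.6 CPM in cells without (log2 ratio 0.50, 0.33 to 0.67). SIX3 stood at 551 and 415 CPM (0.41, 0.35 to 0.47), and HESX1, a forebrain homeobox gene, at 49.8 and 36.8 CPM (0.44, 0.24 to 0.63). LHX5, a LIM-homeodomain gene that needs LDB for its complexes, stood at 68.7 and 52.2 CPM (0.40, 0.23 to 0.56). The 4 genes that were lower in LMO1 cells were the pluripotency genes NANOG (6.85 against 12.8 CPM, -0.90), TDGF1 (67.4 against 120 CPM, -0.84), POU5F1 (439 against 504 CPM, -0.20) and DPPA4 (422 against 461 CPM, -0.13). SOX2, which both states use, did not differ measurably, with 0.03 (-0.03 to 0.09).

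Outside cluster 1 part of these differences remained, some of them smaller. Without that cluster 8 of the 18 genes had an interval above 0 and 4 below it. SIX6 went from 0.50 to 0.27 and SIX3 from 0.41 to 0.27, while TDGF1 gave -0.69 and NANOG -0.80. SOX1 (0.19), OLIG3 (0.18) and SOX9 (0.06) then had intervals across 0. With cells thinned to 4000 UMIs, 9 genes were above 0 and 4 below, all among those at 2500 UMIs. The genes OLIG3 and CYP26A1 dropped out, at 0.02 and 0.01. LMO1 cells also had more transcripts of G2 and M phase genes (2753 against 2276 CPM, 0.27, 0.25 to 0.30), and the part of the cell cycle in these ratios was not tested. LDB2 was lower in LMO1 cells, 13.3 against 17.3 CPM (-0.37, -0.75 to -0.017), and gave -0.13 (-0.53 to 0.25) without cluster 1. LMO4 (0.04, -0.10 to 0.17) and LDB1 (0.02, -0.22 to 0.25) were close to level.

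The same split was made for LMO3, with fewer cells and wider intervals in ectoderm, and its ratios were not tested against those of LMO1. In ectoderm, 653 thinned cells had LMO3, and 6 of the 18 state genes had an interval above 0 and 0 below. Only 1 of those 6, SIX3 (0.16, 0.055 to 0.26), was also above 0 at 4000 UMIs. TDGF1 stood at 110 CPM in cells with LMO3 and 113 CPM in cells without (-0.04, -0.27 to 0.17), and POU5F1 gave 0.02 (-0.08 to 0.12). NANOG depended on depth, with 0.25 (-0.42 to 0.85) at 2500 UMIs and -0.55 (-1.22 to 0.055) at 4000 UMIs. In hPSC, 1341 thinned cells had LMO3, and 2 genes were above 0 and 2 below. At 4000 UMIs these 4 stayed on their side and 1 more passed on each, DPPA4 above and OLIG3 below, the latter from 2 UMIs in the cells with LMO3. SIX6 stood at 25.7 CPM in hPSC with LMO3 and 13.4 CPM in hPSC without (0.94, 0.59 to 1.28), and SIX3 at 54.3 and 42.9 CPM (0.34, 0.11 to 0.56). POU5F1 (-0.10, -0.15 to -0.050) and TDGF1 (-0.20, -0.31 to -0.10) were lower. G2 and M phase genes were higher in these cells too, at 2616 against 2195 CPM (0.25, 0.22 to 0.29), and their part was not tested. SIX6 and SIX3 thus went with LMO1 in ectoderm and with LMO3 in hPSC, where LMO1 was in only 31 thinned cells. SIX3 also went with LMO3 in ectoderm, where SIX6 gave 0.15 (-0.18 to 0.46). In hPSC, SIX6 was lowest in cluster 1, as LMO3 was, at 7.67 CPM against 13.1 to 17.6 CPM in the other clusters. The part of the clusters in the hPSC ratios was not tested. Whether the ratios differ between the libraries was not tested.

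**Figure D4:**
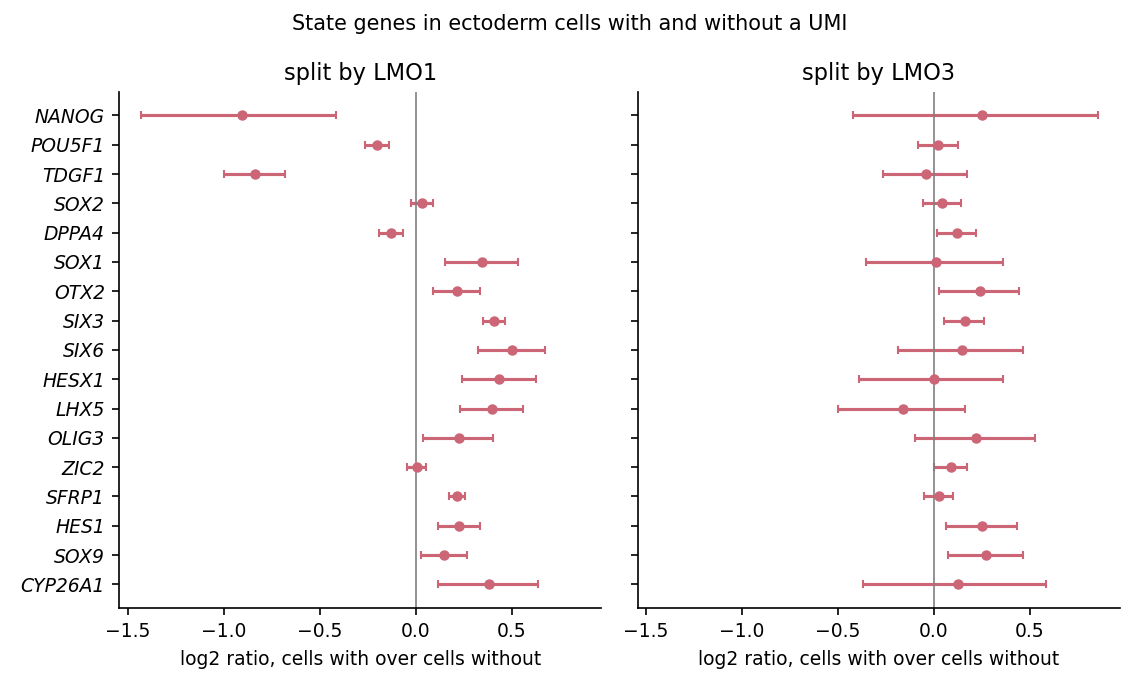
Log2 ratio of the level of 17 state genes in ectoderm cells with a UMI over cells without one, split by LMO1 (left) and by LMO3 (right), all cells thinned to 2500 UMIs. Bars are exact binomial 95% intervals for counting error, the grey line marks 0, and the eighteenth gene, NODAL, is not drawn because it had 3 UMIs or fewer in the cells with either gene. NANOG and TDGF1 lie far below 0 on the left and across 0 on the right. For NANOG this contrast was not seen at 4000 UMIs per cell (not drawn). There it gave -0.49 (-0.87 to -0.13) split by LMO1 and -0.55 (-1.22 to 0.055) split by LMO3.

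The levels were then set out by guide target, where few cells and UMIs make each value imprecise. In ectoderm, 28 targets had at least 50 singly assigned cells. LMO1 ran from 44.7 CPM (24.4 to 75.0) in 54 cells with guides to SOX2 to 121 CPM (87.2 to 165) in 53 cells with guides to HACL1, with a median of 69.1 CPM and 70.7 CPM (55.3 to 89.0) in non-targeting cells. HACL1 cells also had the highest LDB1, at 65.2 CPM from 22 UMIs, and the lowest LMO4, at 71.1 CPM from 24 UMIs. LMO3 ran from 9.39 to 34.1 CPM and LDB2 from 5.06 to 33.3 CPM, with non-targeting cells at 13.7 and 14.7 CPM. LMO4 was above the non-targeting cells for 26 of 28 targets, all set against the same 82 UMIs, 80.5 CPM (64.0 to 99.9). LMO2 was above them for 24 targets, LMO3 for 22, LDB2 for 16, LMO1 for 11 and LDB1 for 6. Each gene was likewise set against a single non-targeting value. In hPSC, over 8 targets, LMO3 ran from 21.2 to 43.6 CPM and LDB2 from 50.3 to 95.7 CPM. The guides of a target share a library and the lowest and highest were picked from many, so these are ranges and not effects of a guide.

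**Figure D5:**
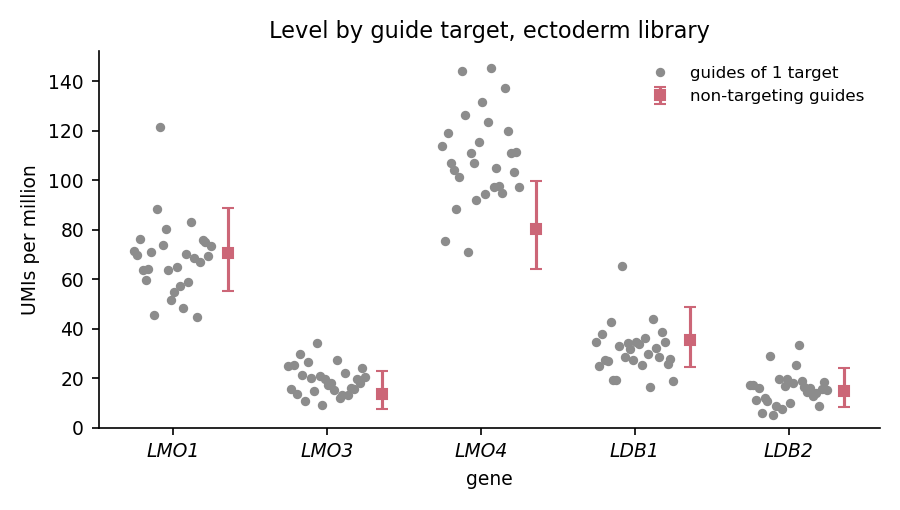
Level of 5 of the genes in ectoderm cells by guide target, in CPM on an axis that starts at 0. Each grey point is 1 of 28 targets with at least 50 cells and the red square is the 159 cells with non-targeting guides, with its exact Poisson 95% interval. The highest LMO1 point, at 121, is HACL1 and the lowest, at 44.7, is SOX2.

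The genes that share partners with the 6 were read from lists. Of 12 LIM-homeodomain genes, which compete with LMO proteins for LDB, 2 were at 20 CPM or more. Both were higher in ectoderm by the rule of size, as were 3.25% of all genes at that minimum. LHX5 had 3.03 CPM against 57.6 in ectoderm (log2 ratio 4.25, 4.07 to 4.44), and LHX4 at 9.91 and 22.4 CPM (1.18, 1.06 to 1.30). LMX1B reached 5.97 CPM in ectoderm, and the other 9 were under 5 CPM in both libraries. LHX5 and LMO1 thus both stood higher in ectoderm, where LDB2 transcripts were fewer and LDB1 transcripts nearly level. Protein was not measured, and competition for LDB was not tested.

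Of 17 known partners of LDB and LMO proteins, 11 were at the minimum and 0 met the rule of size, with a median log2 ratio of 0.05 against -0.03 over all genes. Over all genes at the minimum 7.28% met the rule, so nothing is read from a count of 0 among 11. SSBP3, which stabilises LDB proteins, had 73.6 CPM against 108 in ectoderm (0.56), and the E-protein gene TCF4 at 153 and 218 CPM (0.51). RLIM, a ubiquitin ligase that removes LDB, stood at 43.7 and 41.0 CPM (-0.09), and the demethylase gene KDM1A at 194 and 184 CPM (-0.08). TAL1, LYL1, GATA1, GATA2 and GATA3, the blood and tissue factors joined by LMO2 or its relatives, were under 5 CPM in both libraries.

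Of 23 other LIM-domain genes, mostly of the cytoskeleton and cell adhesion, 12 were at the minimum, with a median of -0.21. LIMD1 was higher (12.02 against 26.8 CPM, 1.16) and 0 were lower by the rule, beside 3.25% higher and 4.03% lower over all genes at the minimum. FHL1 had 0.72, ZYX -0.99 and PDLIM1 -0.74. ZYX and CSRP2 were guide targets in the hPSC library, so their hPSC levels include cells with guides to them.

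The genes most alike in pattern were found by the correlation of log2(CPM + 1) over the 8 clusters, among 6129 genes at 20 CPM or more. Clusters of a library share its depth and preparation, so that a difference between the libraries alone gives high values. LMO1 was most like AUTS2 (Pearson r 0.998), EPHA4 (0.997) and NOTCH2 (0.997), and LDB2 was most like NKX1-2 (0.999), EMSLR (0.997) and ENO1 (0.996). LMO3 came nearest to RHOT2 (0.991), COQ9 (0.989) and CIAPIN1 (0.988). For LMO4 the nearest was ATG4B (0.984), and for LDB1 it was SPINDOC (0.954). No 31-base stretch was shared by the transcripts of any of the 15 pairs of the 6 genes, so reads of 1 gene would not be counted for another on such a match.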

How the data were processed

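The 2 deposited matrices are unnormalised UMI counts for each gene in each cell. Per the submitters' processing notes, the authors used STARsolo and STAR with GRCh38. The use of strand, like tool versions and annotation, is not given in the sources used here. In the 2 deposited amplicon tables each line is 1 read, with the authors' counts of mismatches to the barcodes. The hPSC table holds 1048575 reads and may be part of a longer table.

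Cells with at least 1000 UMIs, 500 genes and at most 20% mitochondrial UMIs were kept (15326 of 15333 in hPSC and 16360 of 16360 in ectoderm). Counts were summed and scaled to 1000000 per library (CPM). Sums have exact Poisson, ratios exact conditional binomial and shares exact Clopper-Pearson 95% intervals. All cover counting error only. Thinning drew 2500 UMIs per cell without replacement. Each library was clustered with scanpy 1.11.5 (scaled to 10000 UMIs per cell, logged, 2000 variable genes without the 6 genes, 30 components, 15 neighbours, Leiden resolution 0.5, seed 0). No doublet caller was run. A cell was assigned to a target with exactly 1 guide at 20 amplicon UMIs or more (2915 hPSC and 3686 ectoderm cells). Python 3.11.15, numpy 2.4.6, scipy 1.17.1 and pandas 2.3.3 were used.

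With 1 library per group no test was run. The 6 genes and the gene lists were chosen with earlier results of these data known. All 6 are described, and from each list at least the highest and lowest log2 ratios at 5 CPM or more could be named. Some list genes were picked after their values were seen, as were the genes of ectoderm cluster 1. Transgenes were left out of the background, and Y-linked genes out of the likeness search. Positions are from GENCODE v29 and promoter windows from RefSeq. The steps were tested on simulated counts. Alternatives were other scalings, cell filters, thinning depths, seeds, depth bins, cluster resolutions and guide minimums.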

Additional observations from a re-analysis of the deposited data

How the results depend on the processing

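No paired analysis was possible because each state is 1 library. The directions of LMO1, LMO2, LMO3 and LDB2 between the libraries held under the alternatives run for each (LMO2 had no ratio in non-targeting cells). Of 252 recomputed values, 205 moved by less than their interval or, for counts, by less than 1.5 times. In non-targeting cells LMO4 and LDB1 changed sign, to -0.10 and -0.12, both with intervals across 0. Without the ectoderm cluster with the lowest LMO1, chosen after seeing the data, LDB2 gave -2.29. At a minimum of 5 CPM, 427 genes were higher and 522 lower in ectoderm, since more genes are measured. Thinned to 4000 UMIs, LMO3 was in 14.1% of hPSC cells, and in ectoderm LMO1 was in 21.0% and LMO3 in 6.95%. At that depth LMO3 alone made up 14.02% of hPSC cells and both genes 0.0565%, and in ectoderm LMO1 alone made up 19.5%, LMO3 alone 5.51% and both 1.44%. Deeper cells show more of each gene by construction. At clustering resolution 1, LMO3 ran from 25.1 to 55.3 CPM over hPSC clusters and LMO1 from 21.2 to 85.9 CPM over ectoderm clusters. Leaving out the barcodes found in both libraries gave 6.54 for LMO1 and -1.15 for LMO3. Depth limits LMO1 in hPSC, with 61 UMIs, and LMO2, with 32.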
